A study of Mus musculus with 3 samples.

Results

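The CREB family and its coactivators were taken as 10 genes, chosen by their symbols in the platform annotation of the array. They were Crem, Creb1 and Atf1, Creb3 and Creb3l4, and the coactivator genes Fhl5, Crebbp, Crtc1, Crtc2 and Crtc3. All 10 were measured, each by 1 probe set, among 19938 named genes. They lie on 8 chromosomes, none of them X, and Creb3l4 and Crtc2 are near neighbours on chromosome 3 with only Slc39a1 annotated between them. The RNA was total RNA of testis cells labelled as spermatids, the haploid germ cells, from wild-type male BALB/c mice at 30 days of age, hybridised to 3 Affymetrix Mouse Gene 1.0 ST arrays. These arrays form 1 group with replicates 1 to 3, and no treated, mutant or control group stands beside it. The described preparation was a filtered suspension of cells from cut tubules with no sorting step, and nothing in the labels ties the replicates to separate animals, so the spread between arrays may be technical.

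CREB, CREM and ATF1 are closely related leucine zipper factors that bind the cyclic AMP response element (CRE) and become active when a kinase phosphorylates a serine in their activation domain, which then recruits the acetyltransferase CBP. Male germ cells are known for another route. In haploid spermatids of the mouse, activator forms of CREM are made in quantity and work with FHL5 (ACT), a LIM-only coactivator of the testis that needs no such phosphorylation, and male mice without Crem stop making sperm at the round spermatid stage. The CRTC proteins form another kind of coactivator, held in the cytoplasm by phosphorylation and released by calcineurin.

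Levels are RMA values on the log2 scale, and ± gives the SD over the 3 arrays. Probes of different genes bind unequally, so the order of levels describes these measurements and is not a ratio of transcripts. A gene was called above background when its mean exceeded 7.98, the 95th percentile of 211 vomeronasal receptor and hair keratin associated protein (Krtap) genes, in a one-sided limma test at 0.05 after Benjamini-Hochberg adjustment over all named genes. The test takes this level as fixed and sees only the spread between arrays. Its p-values hold no error of the level or of probe binding and do not grade the genes against each other. Of the 10 genes, 7 were called, beside 36.6% of all named genes. The median level of the 10 was 9.70, against 7.45 for all named genes and 9.40 for the genes called above background. In bulk RNA, fewer cells of a type and less RNA per cell cannot be told apart.

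Where along this scale the line is drawn decides 4 of the calls. With the line at 9.16, the 99th percentile of those families, 6 of the 10 genes were called beside 19.3% of all genes. With the line at 7.18, the 95th percentile of olfactory receptors, all 10 were called beside 55% of all genes. The same count was reached beside 43.6% of all genes at 7.64. That is the 95th percentile level without vomeronasal receptor pseudogenes, an alternative chosen after seeing the data. Crtc2 lost its call at the highest of these levels, and Crtc1, Crtc3 and Creb3 gained one at both lower levels, where 4 and 1 of 14 markers of other tissues, such as liver or muscle, were called as well. The calls of Fhl5, Creb3l4, Crebbp, Crem, Atf1 and Creb1 were the same at all 4 levels.

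**Figure D1:**
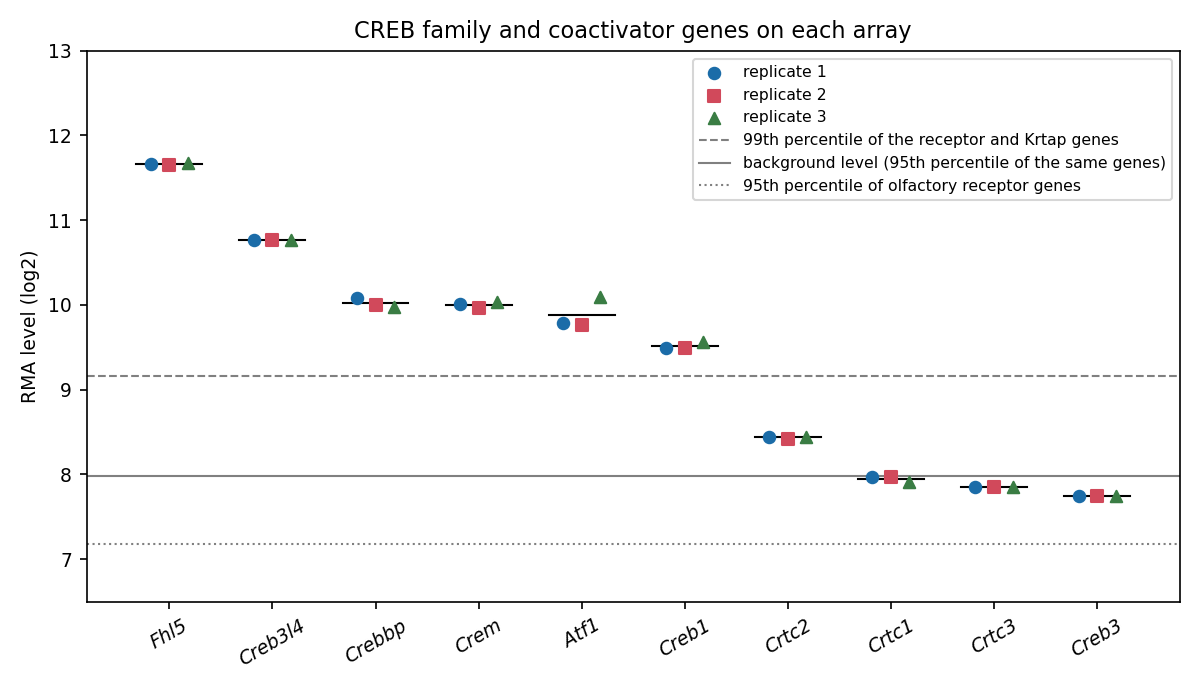
RMA level (log2, vertical axis) of each of the 10 genes on replicates 1, 2 and 3 (symbols), with the mean as a black bar and 3 background levels as horizontal lines. The 6 genes from Fhl5 to Creb1 lie above all lines on every array, Crtc2 lies between the upper pair, and Crtc1, Crtc3 and Creb3 lie between 7.18 and 7.98.

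Crem, the CRE-binding factor of haploid germ cells, had levels of 10.01, 9.96 and 10.03 on replicates 1, 2 and 3. Its values fell within 0.072 of each other, and the mean of 10.003 ± 0.037 lay 2.02 above background (limma, adjusted p = 7.87e-05). It ranked 2389 among the 19938 named genes, counted from the highest. Crem makes both activators and repressors, ICER among them, by alternative exons and starts, and a single probe set names all its transcripts, so these values do not tell the forms apart.

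Creb1, the widely expressed founder of the family, was at 9.50, 9.50 and 9.56. The values of replicates 1 and 2 were equal and replicate 3 was slightly higher. The mean of 9.52 ± 0.038 was 1.54 above background (limma, adjusted p = 0.000146), with 16.9% of genes above it.

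Atf1, the third factor of this kind, gave 9.79, 9.76 and 10.09. Replicate 3 stood 0.31 or more above the other arrays, and the range of 0.33 was the widest of the 10 genes, the next being 0.10 for Crebbp. Ranges as wide were seen in 747 of the 19938 named genes (3.75%). In 402 of these 747 (53.8%) replicate 3 was the highest, as in Atf1. The mean was 9.88 ± 0.18, 1.90 above background (limma, adjusted p = 0.00229). Without replicate 2 the call was lost (adjusted p = 0.0568), although the mean then lay 2.00 above background.

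Among these 3 factors the values of Crem and Atf1 overlapped. Crem exceeded Atf1 on 2 arrays and differed from it by -0.058 on replicate 3. Atf1 exceeded Creb1 on all 3 arrays, by 0.27 to 0.53.

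The factors anchored in the membrane of the endoplasmic reticulum divided. Creb3l4, known in mouse as Tisp40 or Atce1 and cloned from spermatids, was at 10.77, 10.76 and 10.77. Its mean of 10.77 ± 0.0043 was 2.78 above background (limma, adjusted p = 4.31e-07), and 5.98% of genes were higher. Creb3, its broadly expressed relative, read 7.75 on every array and was not called, its difference from the background level being -0.24. It was the lowest of the 10 genes, yet still above the median of all named genes. The RMA values of 46.0% of named genes were tied in this way on all 3 arrays, Crtc3 among them, and for such genes an SD of 0 means tied values and not an absence of error. Creb3l4 had equal values on replicates 1 and 3, so the same limit applies to its small SD and p.

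Fhl5, the coactivator of CREM in spermatids, had the highest level of the 10. It measured 11.66, 11.65 and 11.68, so the arrays differed by no more than 0.032. The mean of 11.66 ± 0.016 was 3.68 above background (limma, adjusted p = 4.05e-06), and only 1.65% of named genes had a higher mean (rank 330). Its level was above that of Creb3l4, the next gene in order, by 0.88 to 0.91 on every array.

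Crebbp, which encodes CBP, the acetyltransferase that binds phosphorylated CREB, was at 10.08, 10.004 and 9.98. The mean was 10.02 ± 0.054, 2.04 above background (limma, adjusted p = 0.00016). Its values and those of Crem overlapped: the difference averaged 0.017 ± 0.067 and was positive on 2 arrays.

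The CRTC coactivator genes lay lowest, together with Creb3. Crtc2 was at 8.45, 8.41 and 8.45, a mean of 8.44 ± 0.018 that was 0.45 above background (limma, adjusted p = 0.000371). Crtc1 gave 7.97, 7.97 and 7.91, with a mean of 7.95 ± 0.036 that differed from the background level by -0.033. Crtc3 read 7.85 on all arrays, a difference of -0.13 from that level. The 3 genes kept this order on all 3 arrays, Crtc2 above Crtc1 by 0.44 to 0.54 and Crtc1 above Crtc3 by 0.057 to 0.12. Since 13 of the 211 background genes had means above that of Creb3, levels between 7.75 and 7.98 are not shown to be expression or its absence.

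In the order of means, neighbours whose values on the arrays did not overlap were Fhl5 and Creb3l4, Creb3l4 and Crebbp, Atf1 and Creb1, and the genes from Creb1 down to Creb3. Crebbp, Crem and Atf1 overlapped. Array 2 gave the lowest value for 5 genes (Fhl5, Creb3l4, Crem, Atf1 and Crtc2), and array 3 the highest for 4 (Fhl5, Crem, Atf1 and Creb1). The median SD of the 10 genes was 0.027, against 0.0075 for all named genes and 0.054 for genes whose values were not all tied.

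**Figure D2:**
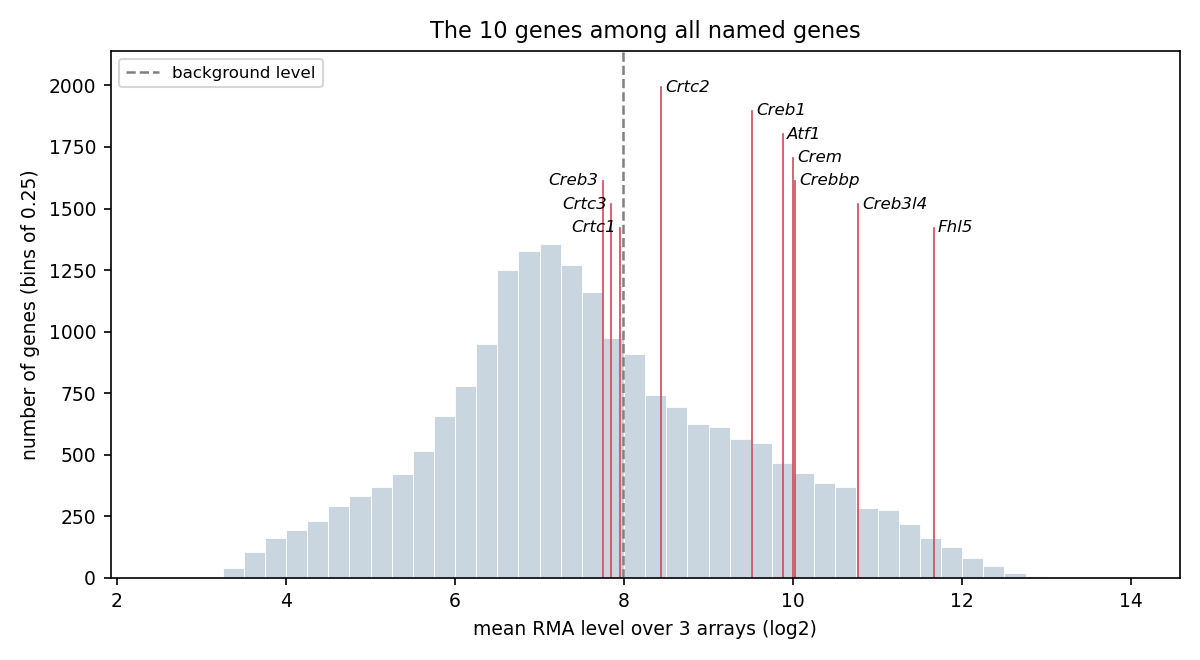
Number of named genes (vertical axis) by mean RMA level over 3 arrays (log2, horizontal axis, bins of 0.25), with the mean of each of the 10 genes as a red line and the background level of 7.98 dashed. All 10 genes lie above the median of 7.45, and 6 lie above 9.40, the median of genes called above background.

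The promoters show which of these genes carry CRE letters near their start. RefSeq windows (GRCm38.p6, not the mm9 genome of the authors' annotation) from 250 bases before to 50 bases after each start were searched on both strands for the CRE, TGACGTCA, and its core TGACG, which every CRE also holds. The CRE was found in 2.03% and the core in 23% of 27025 genes with a window. Letters that differ from the CRE at 1 base, a search added after seeing the data, were found in 12.5%. Windows were matched for 8 of the 10 genes, the others being Crem and Crtc2. The chromosome of Crem was left out of the search, so its promoter was not examined. None of the 8 held the CRE, 2 held the core (Atf1 and Creb3l4) and 1 held the changed form (Fhl5). The stretches of Fhl5, highest of the 10, and of Atf1 are shown from position -100 to 10 counted from the start, with matches in capitals.
Fhl5 (chr4:25242843-25242952, minus strand): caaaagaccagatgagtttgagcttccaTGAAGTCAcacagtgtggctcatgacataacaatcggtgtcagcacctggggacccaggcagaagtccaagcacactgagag
Atf1 (chr15:100227759-100227868, plus strand): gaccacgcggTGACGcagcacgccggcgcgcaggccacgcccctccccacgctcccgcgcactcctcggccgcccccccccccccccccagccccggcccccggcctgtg
In Fhl5 the match TGAAGTCA begins at -72 from the first of 2 annotated starts, and the window of the second held no match. In Atf1 the core begins at -90. Creb3l4 has 3 annotated starts, and the core begins at -222 from the second and at -194 and -63 from the third. A match describes letters only and is no evidence of binding.

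Among relatives of the family outside the 10 genes, 5 of 13 CREB and ATF genes were called, a share close to the 36.6% of all named genes, and their median was 7.66, against 7.45 for all named genes. Atf2, which forms dimers with JUN, led with 10.98, 10.86 and 11.14 (mean 10.99 ± 0.14), followed by Crebzf at 9.29 with tied values, the endoplasmic reticulum stress factor Atf6 at 8.86 ± 0.028 and Atf7 at 8.78 ± 0.098. The fifth, Atf5, passed at a tied 8.03, only 0.044 above the level. Creb3l3, a liver and gut factor, at 6.84 ± 0.089 and Creb3l2 at a tied 5.997 were lowest. At the level of 7.98, Creb3l4 was the single gene of the Creb3 group to be called, Creb3l1 being at 7.66. At 7.64 and 7.18 Creb3 was called as well, and Creb3l1 lay above both levels. The count of 5 was 2 at the 99th percentile level and 10 at the olfactory receptor level.

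Coactivator relatives were called in 4 of 6 genes, with a median of 8.73. Fhl4, a LIM-only gene of mouse testis, was higher than Fhl5 on each array, with 11.92, 11.84 and 11.98 (mean 11.91 ± 0.074). The other LIM-only genes lay lower, Fhl2 at 8.20 ± 0.0024 and called, Fhl1 at 7.64 and Fhl3 at 7.14 ± 0.0092 not called. Ep300, whose product p300 is the close relative of CBP, had tied values of 10.02, beside the mean of 10.02 of Crebbp. Kif17, whose testis form carries FHL5 out of the nucleus in mouse spermatids, measured 9.29, 9.23 and 9.23 (mean 9.25 ± 0.033). The count of 4 was 2 at the 99th percentile level.

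Kinases that can phosphorylate the activating serine of CREB and CREM were called in 5 of 8 measured genes, with a median of 8.32. Camk4, a calcium and calmodulin dependent kinase, was at 9.71, 9.71 and 9.72, and the ribosomal S6 kinase gene Rps6ka6 at 9.76, 9.59 and 9.78. Prkacb, a catalytic subunit of protein kinase A, was at 8.43 ± 0.078 and Rps6ka3 at 8.40 ± 0.052. Camk2d at 7.05 and Camk1 at 6.10, both tied, were lowest. Camk4 also makes calspermin in the testis from an internal start, which this probe set does not separate. Prkaca, Rps6ka1, Rps6ka2 and Rps6ka4 had no probe set that names them alone. The count of 5 was 3 without replicate 2 and 2 at the 99th percentile level. It was also 2 when probe sets of several genes were added, where the background level itself was 8.37.

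Regulators of CRTC location were called in 8 of 10 genes, with a median of 9.66, higher than any of the CRTC genes themselves. The calcineurin genes stood out. Ppp3cc, the catalytic subunit of sperm calcineurin, was at 12.30, 12.20 and 12.40, Ppp3ca at 11.33 ± 0.070 and Ppp3cb at 10.32 ± 0.066. Ppp3r2, the regulatory subunit of the testis, was at 10.18, 10.14 and 10.51, with replicate 3 highest, as in Atf1. Its broadly expressed counterpart Ppp3r1 at 7.995 ± 0.13 was not called. Among the salt-inducible kinases, which hold CRTC proteins in the cytoplasm, Sik3 was at 9.55 ± 0.0032 and Sik2 at 9.39 ± 0.033, both called, while Sik1 at 7.57 ± 0.027 was not. Their activating kinase Stk11 was at 9.77 ± 0.0029.

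All 10 testis genes reported to depend on CREM or to bind it were called, and their median of 12.49 was the highest of the lists around the family. The list was chosen with these values known and is no independent evidence. Prm2, a protamine that packs sperm DNA, was the highest named gene of all at 13.23, 13.19 and 13.26. The sperm mitochondrial capsule gene Smcp was at 12.97 ± 0.038, the germ cell lactate dehydrogenase gene Ldhc at 12.92 ± 0.061 and Prm1 at 12.72 ± 0.014. The transition protein genes Tnp1 and Tnp2 were at 12.64 ± 0.11 and 12.12 ± 0.030. The lowest were Ace, which has a testis form, at a tied 9.94, and Camk4 at 9.71. Fhl5 lay below the first 7 of these genes and above Cyp51, a sterol synthesis gene at 10.17 ± 0.077.

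CRE letters in their windows were mostly of the changed form. Windows were matched for 8 of the 10, the others being Camk4 and Odf1. None held the CRE, 2 held the core (Ldhc and Cyp51) and 5 the form with 1 base changed (Prm1, Tnp1, Smcp, Ace and Cyp51), while Prm2 and Tnp2 held neither. The stretches of 4 genes whose matches lie within 100 bases before the start are shown from -100 to 10. The Ace stretch is that of the second annotated start, inside the gene.
Prm1 (chr16:10796814-10796923, minus strand): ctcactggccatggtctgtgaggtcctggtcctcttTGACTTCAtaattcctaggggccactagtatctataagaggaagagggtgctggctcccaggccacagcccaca
Tnp1 (chr1:73015890-73015999, minus strand): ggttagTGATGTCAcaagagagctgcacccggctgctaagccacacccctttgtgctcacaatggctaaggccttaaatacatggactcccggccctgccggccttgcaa
Ace (chr11:105975089-105975198, plus strand): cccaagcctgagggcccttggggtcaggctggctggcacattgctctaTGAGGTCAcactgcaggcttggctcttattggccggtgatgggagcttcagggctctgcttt
Ldhc (chr7:46861163-46861272, plus strand): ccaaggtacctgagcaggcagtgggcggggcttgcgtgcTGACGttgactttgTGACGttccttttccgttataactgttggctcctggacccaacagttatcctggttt
The matches begin at -64 in Prm1, at -94 in Tnp1 and at -52 in Ace, and the cores of Ldhc begin at -61 and -47. The window of the first start of Ace, upstream of the second, held no match, nor did that of the second annotated start of Ldhc.

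**Figure D3:**
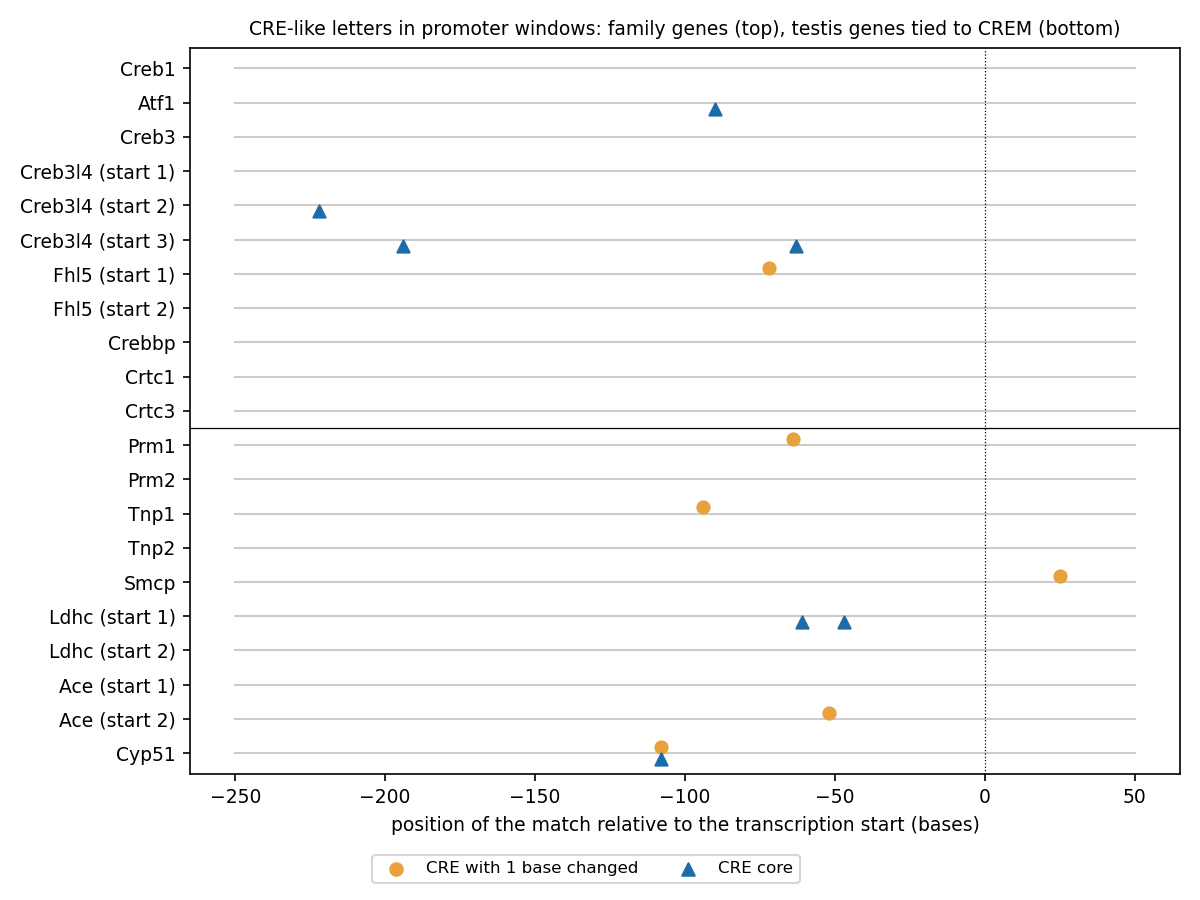
Position of CRE cores (triangles) and of CRE letters with 1 base changed (circles) relative to the transcription start (bases, horizontal axis) in each promoter window, for 8 of the 10 family genes above the line and 8 testis genes tied to CREM below it. In the upper block matches occur in Atf1, Creb3l4 and Fhl5, in the lower block in 6 of 8 genes, and no window holds the CRE itself.

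Of 15 genes that cyclic AMP induces through CREB in somatic cells, 5 were called, a share close to the 36.6% of all named genes, and their median was 7.07, against 7.45 for all named genes. The steroid transport gene Star was highest with 10.11, 9.99 and 9.85, then the clock gene Per1 at 9.06 ± 0.019, the inhibin gene Inha at a tied 8.62 and the nuclear receptor gene Nr4a1 at a tied 8.51. Star is a marker of Leydig cells and Inha of Sertoli cells. The immediate early gene Fos was at 6.28, 6.52 and 6.28, and the lowest were Nr4a3 at 6.21 and Ppargc1a at 5.82 ± 0.054, none of them called. The count of 5 was 1 at the 99th percentile level. Of 12 of these genes with a window, 11 held the core and 7 the form with 1 base changed, against 2 and 5 of the 8 testis genes. Over all genes with a window the shares were 23% and 12.5%. The core was also held by 6 of 7 regulators of CRTC location, 6 of 9 kinases and 6 of 10 CREB and ATF relatives. It was held by 2 of 6 coactivator relatives and 2 of 10 other regulators of spermatids. These differences were not tested. Outside the somatic response genes, Creb5 and Kif17 held the CRE itself. Among the somatic response genes it was held by 1, the phosphatase gene Dusp1 at a tied 8.20, shown from -160 to -61.
Dusp1 (chr17:26508533-26508632, minus strand): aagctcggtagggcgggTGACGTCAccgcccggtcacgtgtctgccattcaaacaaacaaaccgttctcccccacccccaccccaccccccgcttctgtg
The CRE begins at -143.

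Other transcription regulators of spermatids were called in 9 of 10 genes, with a median of 10.02. Gtf2a1l, a testis form of a general factor, was at 11.32 ± 0.098, the TBP relative Tbpl1 at 10.92 ± 0.045, Sox30 at 10.87 ± 0.080 and Rfx4 at 10.28 ± 0.0078, with Rfx2 at a tied 9.61 and Sox5 at a tied 7.83 lowest. Crem, at 10.003, lay near the middle of their levels, and Fhl5, at 11.66, above all of them.

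**Figure D4:**
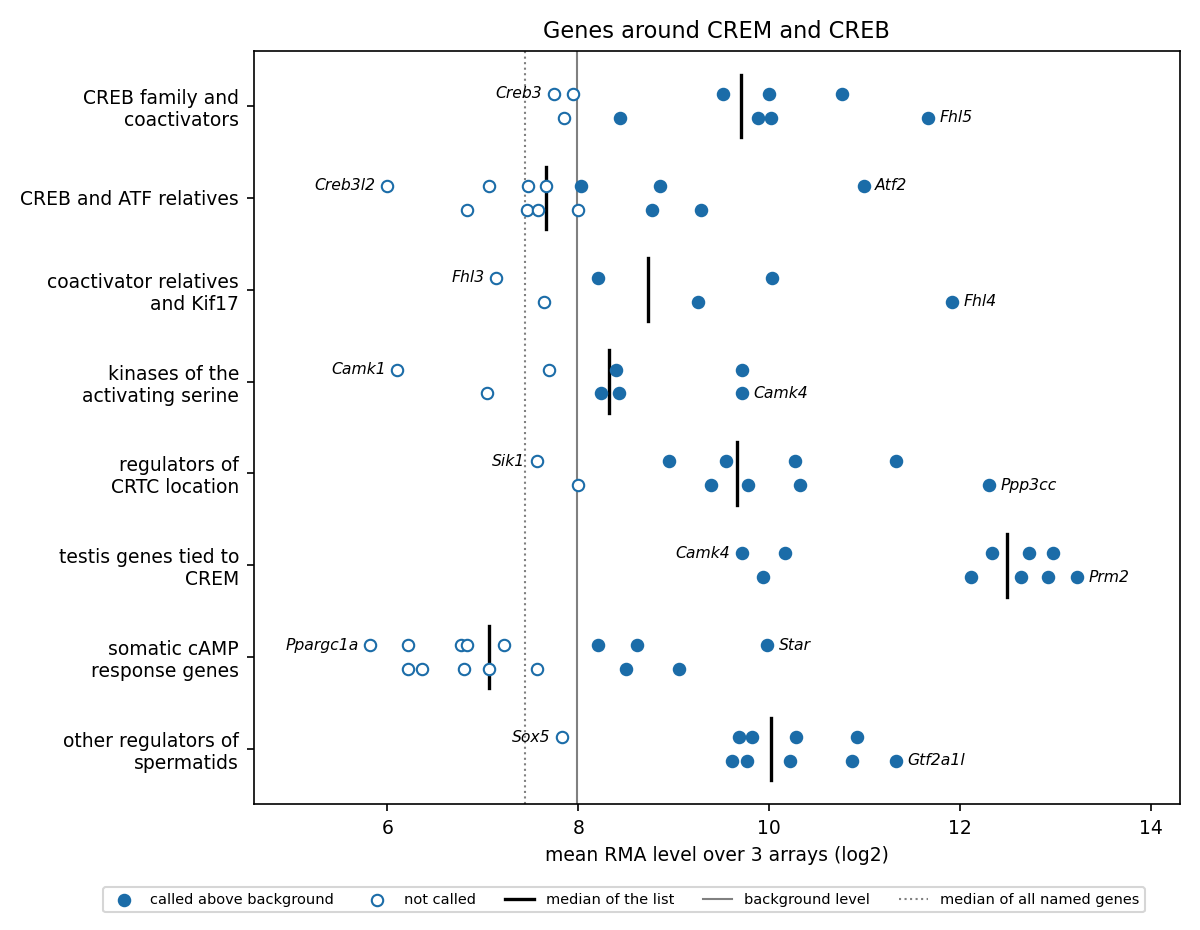
Mean RMA level over 3 arrays (log2, horizontal axis) of each gene in the family and in 7 lists around it (rows), filled where called above background, with the median of each list as a black bar and the highest and lowest gene named. The testis genes tied to CREM lie between 9.71 and 13.22, and the somatic cyclic AMP response genes between 5.82 and 9.98.

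Markers bear on which cells the RNA came from. Their counts stand beside 36.6% of all named genes called, and 19.3% at the 99th percentile level. The spermatogonium count and the peritubular, endothelial and stromal count lie near the first share. These counts by themselves do not show such cells. All 10 spermatid markers were called (median 12.31), and so were all 10 spermatocyte markers (median 11.21), 7 of 8 Leydig cell markers (median 10.21, led by Cyp17a1 at 11.36 ± 0.063) and 6 of 9 Sertoli cell markers (median 8.09, led by Cst12 at 11.81 ± 0.044). The spermatid markers Prm1, Prm2, Tnp1, Tnp2, Smcp and Odf1 are also in the list of testis genes tied to CREM, so these counts are not separate observations. Spermatogonium markers were called in 3 of 10 genes, a count that was 0 at the 99th percentile level, 7 at the olfactory receptor level, 5 without pseudogenes and 1 with probe sets of several genes added. The Sertoli count of 6 was 2 at the 99th percentile level. Peritubular, endothelial and stromal markers were called in 4 of 10 and blood and immune markers in 4 of 7, each being 2 without replicate 1 or replicate 3, and at the 99th percentile level they were 1 and 2. The blood and immune count was also 2 with probe sets of several genes added. No marker of other tissues was called among 14 by limma's adjusted test, and the count was also 0 when the p was left unadjusted or when every array had to exceed the level, but it was 4 at the olfactory receptor level and 1 without pseudogenes. The mean of the Leydig list varied from 9.88 to 9.995 over the arrays and that of the spermatid list from 12.37 to 12.43. The share of each cell type in the levels of the 10 genes was not tested.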

How the data were processed

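The deposited values are log2 probe set levels, which the authors made with Robust Multichip Average in Affymetrix Power Tools and mm9 annotation, per the series' design text, with no version of that software given there. All 3 columns were used. Of 35556 probe sets, 21789 name 1 gene in the platform annotation, 1621 name several and 12146 none. Symbols were updated by Entrez identifier to RefSeq (GRCm38.p6), which matched 21698, and probe sets naming a single gene were combined per gene by their median. Calls came from limma 3.58.1 in R 4.3.3 (intercept model, empirical Bayes, one-sided). A check on simulated data held no tied genes and placed genes without signal well below the level. It therefore does not cover tied genes or genes close to the level. Arrays have no counts, and their number limits the precision. Promoter windows are RefSeq's, without those on chromosome 18, where Crem lies, and protein sequences were not used here. The rule for named genes was the 4 highest and 2 lowest of each list. The text follows it for the 7 lists around the family, with others where a result turns on them, and gives the 8 marker lists as counts with at most their highest gene. The members and lists were chosen with earlier results of these data known. Alternatives covered the background level, probe set summary, normalization, dim genes, call rule, variance model and replicates.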

Additional observations from a re-analysis of the deposited data

How the results depend on the processing

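Of 120 recomputed member calls, 10 genes under 12 alternatives, 112 kept their side of the background level and their call. This count overstates the stability. Choice of probe set, alignment of array medians, dim gene filter, call rule and variance model left every member's difference from the level unchanged. Each member has only 1 probe set, so choosing the highest could not change its value. The exceptions with a turned direction all came from the background level. With the olfactory receptor level, Creb3 lay 0.56 above it, Crtc3 0.67 and Crtc1 0.77, and without pseudogenes 0.10, 0.21 and 0.30. At the 99th percentile level Crtc2 lay at -0.73. Adding probe sets of several genes raised the background level to 8.37, and 6114 of all named genes were then called. Crtc2 lay only 0.068 above that level (limma, adjusted p = 0.0239). Atf1 lost its call without replicate 2 (limma, adjusted p = 0.0568). The count of 7 members ranged from 6 to 7 when 1 replicate was left out. All named genes called numbered 3847 at the 99th percentile level and 10958 at the olfactory receptor level, against 7295. At those levels the CREB and ATF relatives gave 2 and 10 calls, and at the 99th percentile level the coactivator relatives gave 2, the kinases 2 and the somatic response genes 1. The kinases gave 2 with probe sets of several genes added and 3 to 4 with 1 replicate left out. No paired analysis was possible because the arrays form 1 group. Levels near 8 limit what can be called, and arrays with tied values give no error.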

Other observations

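Over all measured genes with a promoter window, 57.1% of 424 genes whose window holds the CRE were called above background, against 37.8% of 15190 genes without it. For the core the shares were 50.6% of 4369 genes and 33.6% of 11245 genes. Both motifs contain a CG step, and the part that base composition plays in these shares was not tested. The 8 family genes with a window comprised 5 called genes, of which Atf1 and Creb3l4 held the core, and 3 genes not called (Creb3, Crtc1 and Crtc3), none of which held it. The core was held by 2 of the 8, near the share of 23% among all genes with a window, and the split by call was not tested. Crem and Crtc2, both called, had no window in the search, which left out the chromosome of Crem.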
